A study of Sus scrofa with 17 samples.

Results

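The muscle ankyrin repeat genes ANKRD1, ANKRD2 and ANKRD23 and 4 genes of titin-associated proteins, CSRP3, TCAP, MYPN and XIRP1, were followed in the longissimus muscle of weaned piglets, as 7 of the 31908 genes in the deposited count table. They were taken by the symbol that belongs to their Ensembl identifier in the pig assembly Sscrofa11.1, and all 7 passed the filter on low counts. ANKRD1 was chosen by its ULU vs control log2(fold change) in these same libraries, and the other 6 genes were added as its family and its partners. The values of ANKRD1 in that comparison are therefore given as a description, without a test. Muscle RNA was sequenced from male Large White × Duroc piglets that were 28 days old at the start, lived singly in metabolic cages, had 5 days to adapt and then received their diet for 2 weeks, in equal daily amounts across diets. The 6 control piglets ate a diet of wheat, maize and soybean meal. In the diet of the 6 UL piglets, 7% of that feed was replaced by Ulva lactuca, a green seaweed. The 5 ULU piglets ate the UL diet with 0.01% ulvan lyase, an enzyme that degrades ulvan, the gelling sugar polymer of these algae. All piglets were of the same sex and cross, and each library came from a different piglet, so the spread within a diet is the spread between animals. The trial's methods name 6 piglets per diet for RNA, and 5 ULU libraries were analysed here.

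Titin is the giant spring protein that runs from the Z-disc, where thin filaments are anchored, to the M-band in the middle of the sarcomere, and its elastic part carries passive tension when muscle is stretched. The 3 muscle ankyrin repeat proteins bind that elastic part at the N2A element, can enter the nucleus, and are known for induction by stretch, injury or denervation. Telethonin (TCAP) caps the end of titin in the Z-disc, muscle LIM protein (CSRP3) binds telethonin, myopalladin (MYPN) links alpha-actinin, nebulin and the ankyrin repeat protein of ANKRD1, and Xin (XIRP1) is an actin-binding repeat protein of attachment sites that is known as a marker of muscle damage and repair.

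The authors deposited the number of reads counted on each gene. TMM factors from edgeR turned them here into CPM, the counts of a gene relative to the scaled total of its library. Libraries held 16137365 to 26546810 counted reads, the smallest signal taken as detectable was 3 reads or 0.130 to 0.195 CPM, and each of the 7 genes was far above it in every library. The deepest libraries were in ULU, with a median of 22320520 counted reads against 17240387 in control and 18398491.5 in UL. Genes of the mitochondrial chromosome took 14% to 15.9% of the counts in control, 8.64% to 14.8% in UL and 8.0% to 11.6% in ULU, so control and ULU did not overlap in this share. Muscle transcripts dominated the libraries. The skeletal muscle markers were ACTA1, CKM, MYH2, TNNT3, MYLPF and DES. Their summed CPM was 104175 to 169685 in control, 137982 to 186745 in UL and 153636 to 270080 in ULU. Of heart markers, 4 of 6 were matched to a gene row, and NPPA and MYL7 were not. The gene row matched to NPPB had a read in 1 of the 17 libraries, at 0.0515 CPM, and TNNI3 reached 0.427 CPM at the most. MYL4, an atrial light chain also made in fetal muscle, had 0 to 89.1 CPM, and the gene row that spans MYH6 and the slow fibre gene MYH7 is given with the fibre type genes. No marker of endothelium, fat, leukocytes, fibroblasts, smooth muscle, satellite cells or tendon passed an adjusted p of 0.05 between any diets in the edgeR test (the quasi-likelihood F test, with p adjusted after Benjamini and Hochberg over all genes tested). Of the 6 skeletal muscle markers, 2 passed as higher in ULU vs control, against 1.99% of all genes. They were MYH2 (log2(fold change) 0.53, adjusted p = 0.0397 in the edgeR test) and TNNT3 (0.66, adjusted p = 0.0280 in the edgeR test). All 6 had a positive value there, and 0 passed in the other comparisons. Their part in the ANKRD1 values was not tested. In whole muscle, fewer cells of a type and less RNA per cell cannot be told apart.

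ANKRD1 (ENSSSCG00000010461) lies on the minus strand of chromosome 14, from 102603777 to 102612839, inside the span of RPP30 on the other strand, and the genes share no exonic base. ANKRD2 (ENSSSCG00000010522) lies on the same chromosome from 108944534 to 108959382, and 11.2% of its exonic bases belong also to HOGA1 or to a gene without a symbol. ANKRD23 (ENSSSCG00000008200) lies on chromosome 3 from 56776812 to 56782654. Of its 2434 exonic bases, 1926 (79.1%) are shared with a gene without a symbol on the same strand, ENSSSCG00000035533. The header of the counts names no option to keep reads that overlap several genes, so such reads were not counted, and the CPM of ANKRD23 rests on the other 508 bases. TCAP (ENSSSCG00000017500, chromosome 12, 22651666 to 22653453) shares 27.7% of its exonic bases with STARD3. XIRP1 (ENSSSCG00000034015, chromosome 13, 23867478 to 23873589) shares 19.3% with an opposite gene without a symbol, and the counting named no strand. CSRP3 (ENSSSCG00000013354, chromosome 2, 40215353 to 40240618) and MYPN (ENSSSCG00000029311, chromosome 14, 71298907 to 71394600) share none.

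Per kilobase of exonic length, the 7 genes covered a wide range of levels, and TCAP stood first. Its level was 344 ± 89.0 CPM per kb (SD, n = 17) over all libraries, against 153 ± 79.2 (SD, n = 17) for CSRP3, the second. The next 3 genes lay close together, with mean levels of 72.8 ± 11.7 CPM per kb (SD, n = 17) for ANKRD23, 68.5 ± 63.7 (SD, n = 17) for ANKRD1 and 53.8 ± 7.62 (SD, n = 17) for MYPN. XIRP1 had 8.47 ± 4.18 CPM per kb (SD, n = 17) and ANKRD2, the lowest, had 7.63 ± 5.14 (SD, n = 17).

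Over all exonic bases, the order of neighbours was firm at some steps and not at others. TCAP was above CSRP3 in 16 of 17 libraries, CSRP3 was above ANKRD23 in 16 of 17, and MYPN was above XIRP1 in 17 of 17. ANKRD23 was above ANKRD1 in 9 of 17 libraries, ANKRD1 above MYPN in 10 of 17, and XIRP1 above ANKRD2 in 8 of 17. On this basis these neighbours did not differ beyond their spread. The place of ANKRD23 depended on the shared exons. Over unshared bases alone its level was 349 ± 55.9 CPM per kb (SD, n = 17), second to TCAP at 475 ± 123 (SD, n = 17) on the same basis, and it was above TCAP in 1 of 17 libraries. On that basis ANKRD23 was above CSRP3 and ANKRD1 in each library, so its steps given above did not hold. The closest values were 373 against 368 for CSRP3 in UL replicate 29. For ANKRD1 they were 379 against 267 in control replicate 26.

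**Figure D1:**
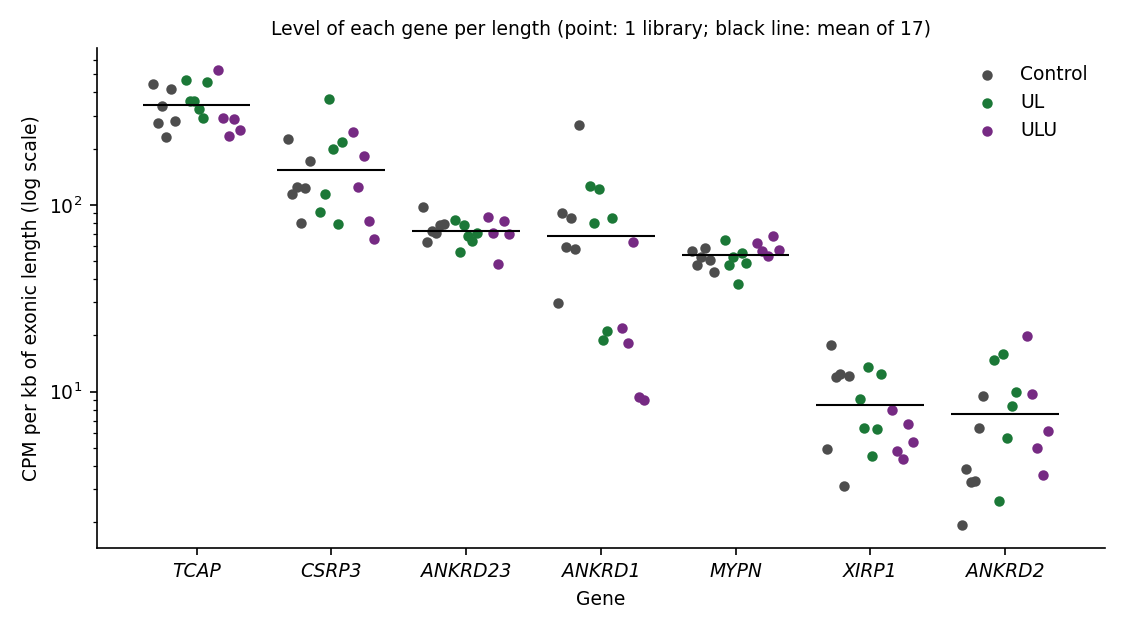
Level of each gene in CPM per kb of exonic length (log axis) in the 17 libraries, ordered by the mean, which is the black line. Points of ANKRD1 spread across the drawn levels of ANKRD23 and MYPN on either side, while TCAP and CSRP3 lie above and XIRP1 and ANKRD2 below. ANKRD23 is drawn over all 2434 exonic bases. Over its 508 unshared bases its mean level was 349 CPM per kb, above CSRP3 and ANKRD1 in each library.

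ANKRD1, the ankyrin repeat gene best known for its induction by mechanical load, varied most of the 7 genes. In control, its CPM went from 135 through a median of 326 to 1209. In UL, the lowest library was at 86.0, the median at 374 and the highest at 573 CPM. The ULU libraries had 98.8, 83, 287, 42.1 and 40.8 CPM. Thus 4 of 5 ULU libraries were below every control library, 2 of 6 UL libraries were too, and the remaining ULU library lay in the middle of the control range, so the diets overlapped. The mean CPM and its SD were 445 ± 387 for control (n = 6), 342 ± 212 for UL (n = 6) and 110 ± 102 for ULU (n = 5). In ULU vs control, the difference for which the gene was picked, the log2(fold change) was -2.01 with a standard error (SE) of 0.62, which is a fold of 0.248. It was -1.39 without control replicate 26, the library at 1209 CPM, and -2.75 without ULU replicate 42, the library at 287 CPM. The mitochondrial share of the counts differed between the same diets, and the log2(fold change) was -2.0 in a fit without the genes of that chromosome. That fit only takes these genes out of the counts, and whether the share goes with the ANKRD1 values was not tested.

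Between UL and control, the log2(fold change) of ANKRD1 was -0.38 ± 0.56 (SE, adjusted p = 0.856 in the edgeR test), and it turned to 0.23 without control replicate 26. In ULU vs UL, which uses the same ULU libraries as the comparison for which the gene was picked, the log2(fold change) was -1.63 (SE 0.62, adjusted p = 0.352 in the edgeR test). Values with 1 library left out went from -2.37 to -1.42.

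ANKRD2, the ankyrin repeat gene known for expression in slow fibres, had its lowest mean in control. In control, CPM went from 8.72 through a median of 16.2 to 42.6, and in UL from 11.8 through 41.5 to 71.6. In ULU, the libraries were at 90.1, 44.2, 22.6, 16.1 and 27.9 CPM. Most control libraries were at the low end, but the highest control library, the same one that was highest in ANKRD1, exceeded 3 of the 5 ULU libraries. Mean CPM values with SD were 21.2 ± 12.4 for control (n = 6), 43.1 ± 23.1 for UL (n = 6) and 40.2 ± 29.8 for ULU (n = 5). In the edgeR test, the log2(fold change) of ANKRD2 was 1.02 (SE 0.45, adjusted p = 0.425) in UL vs control. For ULU vs control it was 0.92 (SE 0.47, adjusted p = 0.297 in the edgeR test), and 0.38 without ULU replicate 40, the library at 90.1 CPM. The difference between ULU and UL was -0.10 (SE 0.46, adjusted p = 0.963 in the edgeR test).

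ANKRD23, the third gene of the family, was the steadiest of the 3. Its CPM lay between 154 and 238 in control, with a median of 183, and between 136 and 203 in UL, with a median of 168. The ULU libraries were at 210, 173, 118, 199 and 169 CPM. All diets overlapped over most of their range, and the highest of the 17 libraries was 2.02 times the lowest, against 29.7 times for ANKRD1 and 10.3 times for ANKRD2. Its log2(fold change) was -0.14 (SE 0.14) in UL vs control, -0.11 (SE 0.14) in ULU vs control and 0.03 (SE 0.14) in ULU vs UL, with adjusted p of 0.769, 0.726 and 0.964 in the edgeR test.

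**Figure D2:**
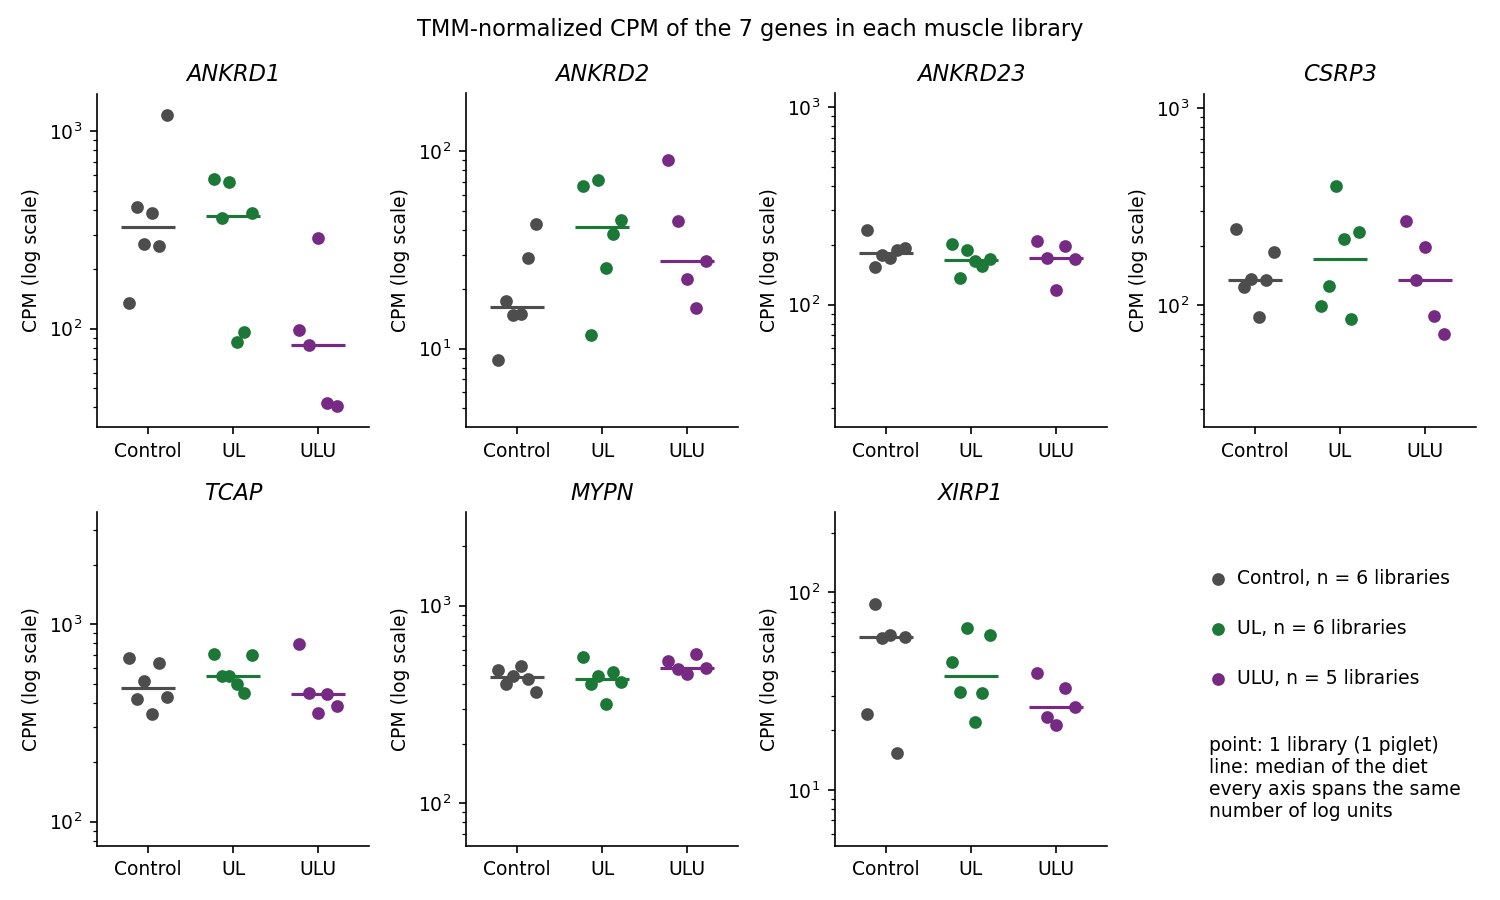
CPM (log axis) of each gene by diet, with 1 point per library and a line at the median of the diet, every axis spanning the same number of log units. The ANKRD1 points run from 40.8 to 1209 CPM and 4 of 5 ULU points lie under all control points, while ANKRD23 and MYPN form flat bands across the diets.

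Among the Z-disc partners, TCAP and CSRP3 had no direction by diet that exceeded the spread between piglets. TCAP went from 350 through a median of 474 to 678 CPM in control and from 446 through 546 to 710 in UL. In ULU it had 798, 447, 357, 441 and 384 CPM. One ULU library was the highest of the 17 and the other 4 were in the lower part of the control range. The log2(fold change) of TCAP was 0.18 (SE 0.20, adjusted p = 0.791), -0.06 (SE 0.21, adjusted p = 0.909) and -0.24 (SE 0.21, adjusted p = 0.754) for UL against control, ULU against control and ULU against UL with the edgeR test.

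CSRP3, which also shuttles to the nucleus and is known from inherited heart muscle disease, ranged from 87.1 to 244 CPM in control, around a median of 135. In UL the range was 85.6 to 400 CPM around a median of 171. In ULU the libraries had 267, 135, 198, 88.7 and 71.4 CPM. The diets overlapped almost fully, and the ULU library that was highest in CSRP3, replicate 40, was also the highest in TCAP and ANKRD2. The log2(fold change) of CSRP3 was 0.35 (SE 0.37, adjusted p = 0.780) in UL vs control, 0.00 (SE 0.38, adjusted p = 0.999) in ULU vs control and -0.35 (SE 0.38, adjusted p = 0.812) in ULU vs UL in the edgeR test.

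MYPN had the narrowest range of the 7 genes, with the highest library at 1.79 times the lowest. Its CPM was between 365 and 493 in control and between 318 and 548 in UL, with medians of 434 and 425. The 5 ULU libraries had 522, 476, 449, 571 and 484 CPM. These were all above the control median, and they overlapped both other diets. In the edgeR test, the log2(fold change) of MYPN was -0.01 (SE 0.12, adjusted p = 0.984) in UL vs control, 0.21 (SE 0.12, adjusted p = 0.383) in ULU vs control and 0.22 (SE 0.12, adjusted p = 0.547) in ULU vs UL.

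XIRP1 had a wide range in control, at 15.3 CPM in the lowest library, 59.2 at the median and 87.0 in the highest. In UL it went from 22.2 through a median of 37.9 to 66.3 CPM. The ULU libraries lay close together at 39.1, 23.4, 21.4, 32.9 and 26.3 CPM. In control, 4 libraries were above every ULU library and the other 2 were among or below them. The mean CPM of control was 51.0 ± 26.5 (SD, n = 6), that of UL 42.7 ± 17.8 (SD, n = 6) and that of ULU 28.6 ± 7.31 (SD, n = 5). The log2(fold change) of XIRP1 was -0.26 (SE 0.34, adjusted p = 0.830) in UL vs control, -0.83 (SE 0.36, adjusted p = 0.210) in ULU vs control and -0.57 (SE 0.36, adjusted p = 0.601) in ULU vs UL in the edgeR test.

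Thus 0 of the 7 genes passed an adjusted p of 0.05 with the edgeR test in UL vs control, where 0% of the 14203 genes tested passed. In ULU vs control, where ANKRD1 is left out of all counts because that difference chose it, 0 of the other 6 passed, against 2.98% of all genes, and in ULU vs UL 0 of 7 passed, against 0.0352%. With a log2(fold change) of at least 1 as a further limit, 0 passed in each comparison, against 0%, 0.415% and 0.0141% of all genes. At an unadjusted p under 0.05 the count was 1 of 7 in UL vs control (ANKRD2), where 10.8% of all genes were called. It was 1 of 6 in ULU vs control (XIRP1), against 18.9%, and 1 of 7 in ULU vs UL (ANKRD1), against 10.8%. ANKRD1 was picked by values of the same ULU libraries, so nothing is read from its count in ULU vs UL. DESeq2 called 0 of 7, 0 of 6 and 0 of 7 in the same order, against 1.46%, 7.17% and 6.23% of the genes to which it gave an adjusted p. In CPM, the diets compared did not overlap for 0 of 7, 0 of 6 and 0 of 7 genes, against 0.852%, 3.39% and 1.75% of all genes, in the same order of comparisons. The median log2(fold change) over all genes was -0.00, -0.03 and -0.02.

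**Figure D3:**
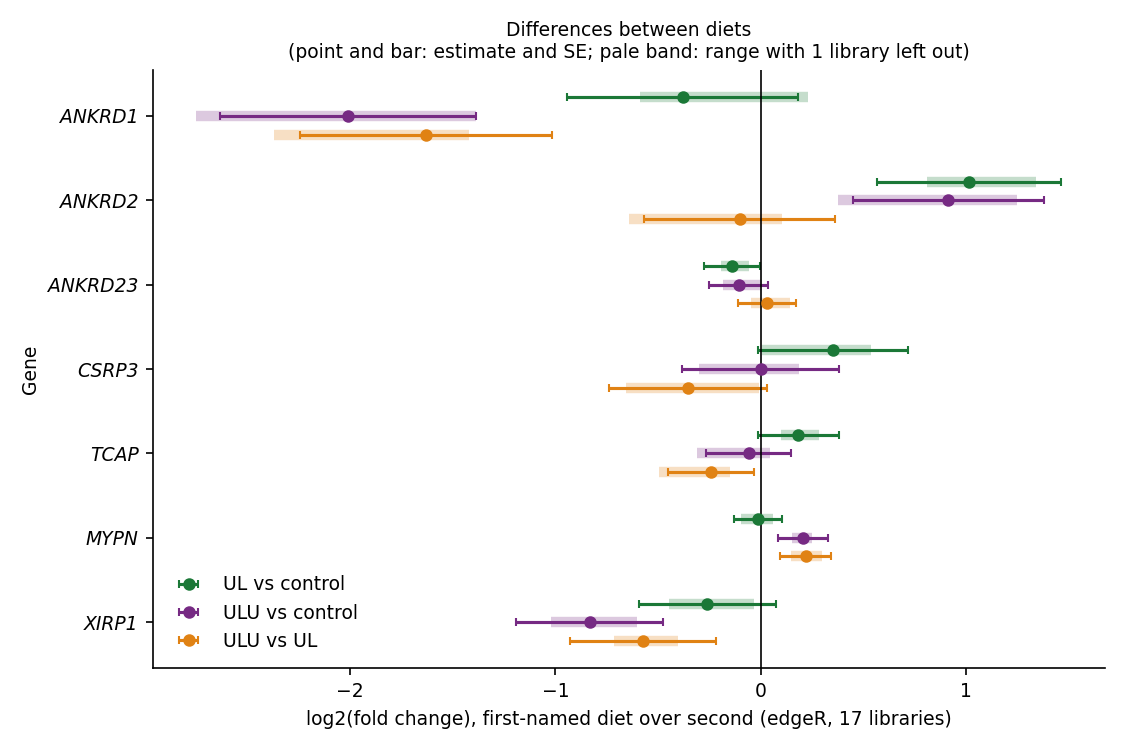
The log2(fold change) of each gene in the 3 comparisons, as the first-named diet over the second, with bars of 1 SE and pale bands for the range with 1 library left out at a time. ANKRD1 lies at -2.01 in ULU vs control and ANKRD2 at 1.02 in UL vs control, whereas ANKRD23, TCAP and MYPN lie within 0.24 of 0.

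The 7 genes fell apart by how much they varied between piglets on the same diet. The standard deviation of log2 CPM within diets was 1.15 for ANKRD1, higher than that of 97.2% of the 14203 genes tested, and 0.91 for ANKRD2, higher than 92.8%. CSRP3 had 0.73 (86.3% of genes lower) and XIRP1 had 0.71 (85.2% lower). TCAP had 0.37, near the median gene at 0.35, while ANKRD23 had 0.25 and MYPN 0.20, lower than most genes (27.8% and 14.2% of genes were lower still). The biological coefficient of variation estimated by edgeR gave the same order at both ends, with 0.653 for ANKRD1 and 0.154 for MYPN, against 0.244 for the median gene.

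Within one library, ANKRD1 and ANKRD2 can be set against each other, since both are counted from the same RNA. Per kilobase of exonic length, ANKRD1 was above ANKRD2 in each of the 17 libraries. Over unshared bases alone, the order turned in ULU replicate 40, with 21.8 CPM per kb for ANKRD1 and 22.4 for ANKRD2. The ratio of the levels over all exonic bases went from 9.08 through a median of 20.8 to 28.3 in control and from 2.52 through 8.10 to 30.8 in UL. In ULU it was 1.09, 1.87, 12.7, 2.61 and 1.46. Accordingly, 5 of 6 UL libraries and 4 of 5 ULU libraries lay below the lowest control library. UL replicate 28 was above all control libraries, and ULU replicate 42 was within their range. The ratio holds the ANKRD1 values for which the gene was picked and is given without a test.

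**Figure D4:**
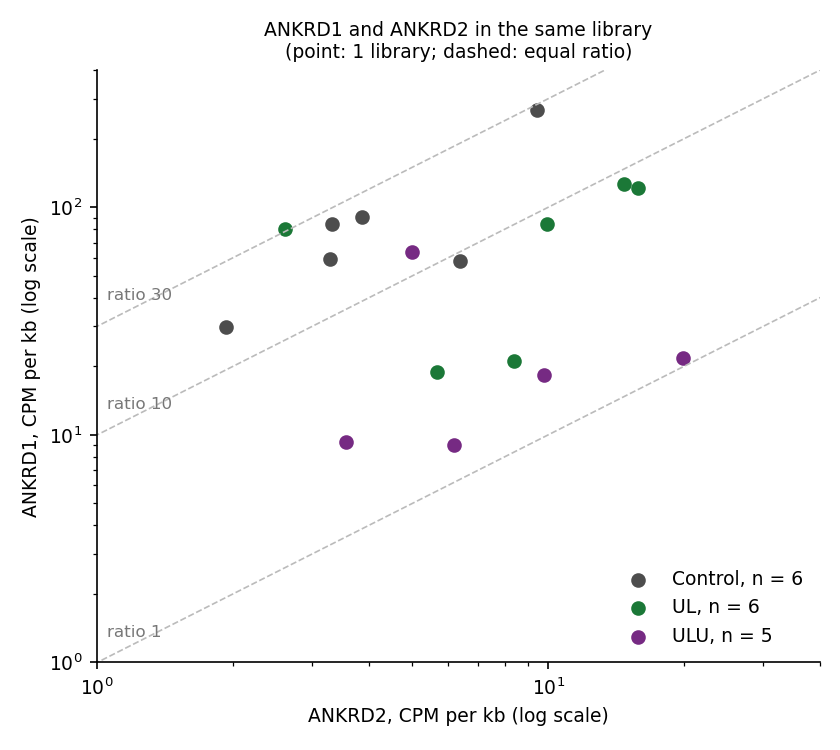
Level of ANKRD1 against that of ANKRD2 in the same library, both in CPM per kb on log axes, with dashed lines of equal ratio. Control points lie between ratios of 9.08 and 28.3, and 4 of 5 ULU points lie between 1.09 and 2.61.

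To ask whether ANKRD1 moved with its family from piglet to piglet, the diet means were removed from log2 CPM and the 21 pairs of the 7 genes were correlated over the 17 libraries, with 100000 permutations within diets. ANKRD1 had its highest r with XIRP1, 0.443 (permutation p = 0.0849, adjusted p = 0.460 over the 21 pairs, Spearman's rho 0.485, p = 0.0651). With ANKRD2 its r was 0.426 (permutation p = 0.116, adjusted p = 0.460, rho 0.412, p = 0.126), and with CSRP3 it was 0.316 (permutation p = 0.261, adjusted p = 0.460, rho 0.301, p = 0.289). These 3 pairs were on the positive side without passing the test, and without the 2 libraries farthest from the median of ANKRD1 (control replicate 26 and UL replicate 30) the values were 0.297, 0.253 and 0.405.

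The other ankyrin repeat gene, ANKRD23, had an r of -0.251 with ANKRD1 (permutation p = 0.362, adjusted p = 0.585, rho 0.00735, p = 0.981). TCAP and MYPN were near 0, with r of -0.0294 and -0.0393 (permutation p = 0.917 and 0.896, rho 0.0466 and -0.184). Within single diets these values were of either sign. ANKRD1 with TCAP had r = -0.661 in the 6 control libraries (exact permutation p = 0.142, adjusted p = 0.366 over the 21 pairs, rho -0.771) and r = 0.757 in the 6 UL libraries (exact permutation p = 0.0875, adjusted p = 0.540, rho 0.886). ANKRD1 with MYPN had r = -0.743 in control (exact permutation p = 0.0958, adjusted p = 0.360, rho -0.60) and r = 0.561 in UL (exact permutation p = 0.283, adjusted p = 0.540, rho 0.657). With XIRP1, r was positive in control and in UL, 0.542 in control (exact permutation p = 0.293, adjusted p = 0.615, rho 0.771) and 0.792 in UL (exact permutation p = 0.0708, adjusted p = 0.540, rho 0.83). In ULU, where r was not computed, replicate 42 had the highest ANKRD1 (287 CPM) and the lowest XIRP1 (21.4 CPM). With ANKRD2, r was 0.817 in control (exact permutation p = 0.0403, adjusted p = 0.321, rho 0.657). In UL, r with ANKRD2 was 0.359 (exact permutation p = 0.465, adjusted p = 0.576, rho 0.771). In control and UL in that order, r was -0.422 and 0.435 with ANKRD23, and -0.166 and 0.261 with CSRP3. The difference between diets in these correlations was not tested.

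None of the 21 pairs passed after adjustment. The strongest was ANKRD23 with TCAP, with r = 0.667 (permutation p = 0.0151, adjusted p = 0.318) and rho = 0.703 (permutation p = 0.00439, adjusted p = 0.0922). It was 0.557 without the 2 libraries farthest in ANKRD23. ANKRD23 with MYPN followed (r = 0.464, permutation p = 0.0545, adjusted p = 0.460), then ANKRD1 with XIRP1 as given above and CSRP3 with TCAP (r = 0.433, permutation p = 0.0953, adjusted p = 0.460), and CSRP3 with MYPN was the most negative (r = -0.340, permutation p = 0.254, adjusted p = 0.460). ANKRD2 with ANKRD23 had r = 0.380 (permutation p = 0.170, adjusted p = 0.460, rho 0.422, p = 0.119), and 0.0205 without the 2 libraries farthest in ANKRD2. Within single diets, that pair had r = -0.276 in control (exact permutation p = 0.618, adjusted p = 0.837) and r = 0.922 in UL (exact permutation p = 0.00972, adjusted p = 0.204).

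**Figure D5:**
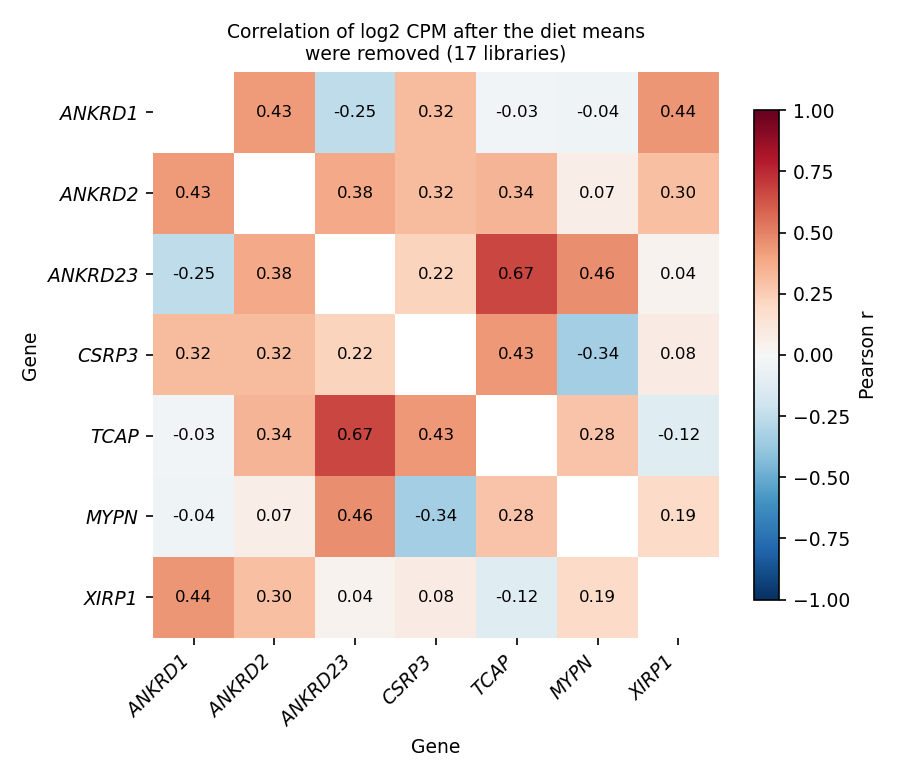
Pearson r between each pair of the 7 genes over 17 libraries after the diet means were removed from log2 CPM. The darkest cell is ANKRD23 with TCAP at 0.667, and the ANKRD1 row is positive for ANKRD2, CSRP3 and XIRP1 and negative for ANKRD23.

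Ranked among all 14202 other genes by r with ANKRD1, XIRP1 was at place 834 (5.87% of genes had a higher r), ANKRD2 at 978 (6.88%) and CSRP3 at 2086 (14.7%), whereas ANKRD23 was at 11319. The genes with a symbol most like ANKRD1 over the 17 libraries were NABP1 (r = 0.902), GTF2H3 (0.890), C6orf62 (0.835), NUP93 (0.825), SEL1L (0.780), TPD52L1 (0.774), HSPB8 (0.759), MEF2C (0.756), WDR89 (0.745) and STX17 (0.743). HSPB8 encodes a small heat shock protein of the Z-disc chaperone complex, and MEF2C a transcription factor of muscle. Most of these genes had a much narrower range than ANKRD1, since NABP1 went from 9.86 to 31.2 CPM and GTF2H3 from 31.6 to 50.6 CPM. Among those most like ANKRD2 were TRMT61A (r = 0.879), MAP2K1 (0.802), QTRT1 (0.80) and ETV4 (0.80). These coefficients were the highest of 14202 over libraries that differ in depth, so they describe likeness and carry no test.

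Scores of 3 gene lists, the mean of their log2 CPM with diet means removed, were set against each of the 7 genes. Of the 21 relations, the lowest adjusted permutation p was 0.433. ANKRD2 with the slow fibre score had r = 0.30 (permutation p = 0.267, adjusted p = 0.560, rho 0.265, p = 0.332) and CSRP3 had r = 0.364 with it (permutation p = 0.170, adjusted p = 0.433, rho 0.404, p = 0.136), which was 0.109 without the 2 libraries farthest in CSRP3. TCAP had r = 0.372 with the slow fibre score (permutation p = 0.168, adjusted p = 0.433, rho 0.539, p = 0.0361). For ANKRD1, r was 0.00993 with the slow fibre score (permutation p = 0.971), 0.365 with the immediate early score (permutation p = 0.174, adjusted p = 0.433) and 0.266 with the score of targets of YAP and TEAD (permutation p = 0.319, adjusted p = 0.608), the transcription factors through which ANKRD1 is known to respond to tension. XIRP1 had r = 0.463 with the immediate early score (permutation p = 0.109, adjusted p = 0.433) and 0.445 with the YAP target score (permutation p = 0.0995, adjusted p = 0.433), and the second value was -0.0325 without the 2 libraries farthest in XIRP1. The largest r in size was that of TCAP with the YAP target score, -0.466 (permutation p = 0.105, adjusted p = 0.433, rho -0.547, p = 0.0369). Each gene of a list weighed the same in its score. The YAP target and immediate early lists held genes near the detection limit, some at 0 CPM in a library, and their weight in r was not tested.

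The proteins that share titin with these genes were counted from lists. No gene of the lists below passed an adjusted p of 0.05 in UL vs control or ULU vs UL in the edgeR test, where 0% and 0.0352% of all genes passed. In ULU vs control, 1.99% of all genes passed as higher and 0.993% as lower. There, 0 of 9 genes of the titin spring and its N2A partners passed, with a median log2(fold change) of 0.27 against -0.03 for all genes. They included calpain 3 (CAPN3), the protease held at N2A, with a mean CPM of 376 ± 43.7 for control (SD, n = 6), 381 ± 25.0 for UL (SD, n = 6) and 516 ± 157 for ULU (SD, n = 5), and with a ULU vs control value of 0.46 (SE 0.15, adjusted p = 0.0887 in the edgeR test). Titin itself is split over several genes without a symbol in this annotation, and 0 of the 4 pieces tested passed in ULU vs control. The piece counted with the list (ENSSSCG00000038561) had a log2(fold change) of 0.06 (SE 0.14, adjusted p = 0.850 in the edgeR test). The most abundant piece (ENSSSCG00000036052) had 0.60 (SE 0.16, adjusted p = 0.0516 in the edgeR test), and the lowest of the 4 values was -0.18.

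Of 24 other Z-disc genes, 2 rose in ULU vs control and 0 fell, with a median log2(fold change) of 0.30. They were ACTN3, the alpha-actinin of fast fibres (0.71, SE 0.14, adjusted p = 0.0128 in the edgeR test), and PDLIM5, a PDZ and LIM protein that binds alpha-actinin (0.49, SE 0.13, adjusted p = 0.0485 in the edgeR test). Of 10 genes of the M-band and the partners of the titin kinase, 2 rose and 0 fell, with a median of 0.29. SMYD1, a muscle methyltransferase, had 0.57 (SE 0.10, adjusted p = 0.00979 in the edgeR test) and MYOM2, a myomesin, had 0.61 (SE 0.16, adjusted p = 0.0463 in the edgeR test). TRIM63, the ubiquitin ligase MuRF1, had 72.5 ± 15.3 CPM (SD, n = 6) in control and 54.1 ± 14 (SD, n = 5) in ULU (log2(fold change) -0.42, SE 0.21, adjusted p = 0.291 in the edgeR test). The log2(fold change) of MYPN and TCAP in that comparison, 0.21 and -0.06, lay under the medians of both lists.

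Genes that act upstream of ANKRD1 or are induced beside it were taken as further lists. Among the factors of the YAP and TEAD pathway, 2 of 10 rose in ULU vs control, TEAD4 (log2(fold change) 0.79, SE 0.13, adjusted p = 0.00502 in the edgeR test) and WWTR1, the YAP homologue TAZ (0.45, SE 0.12, adjusted p = 0.0485 in the edgeR test). Of 18 targets tested, 0 rose and F3, the tissue factor, fell (-0.91, SE 0.22, adjusted p = 0.0316 in the edgeR test), and the median of the targets was -0.35. CCN2, a classical target, had 11.7 ± 5.28 CPM (SD, n = 6) in control and 5.23 ± 3.51 (SD, n = 5) in ULU (log2(fold change) -1.15, SE 0.45, adjusted p = 0.166 in the edgeR test). It was added here after its values had been seen. Of 20 immediate early genes tested, 0 rose and 2 fell in ULU vs control, the transcription factor ATF3 (-3.46, SE 0.62, adjusted p = 0.00898 in the edgeR test) and the nuclear receptor NR4A3 (-2.58, SE 0.60, adjusted p = 0.0295 in the edgeR test), with a median of -0.35.

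Fibre type genes were counted beside ANKRD2. In ULU vs control, 3 of 10 slow fibre genes rose and 0 fell, with a median log2(fold change) of 0.70. They were TNNT1 (1.3, SE 0.27, adjusted p = 0.0178 in the edgeR test), the gene row that spans MYH6 and MYH7 (1.11, SE 0.25, adjusted p = 0.0236 in the edgeR test) and TNNI1 (0.92, SE 0.23, adjusted p = 0.0406 in the edgeR test). Of 10 fast fibre genes, 4 rose, namely MYBPC2, ACTN3, ATP2A1 and TNNT3, and 0 fell, with a median of 0.47. The summed CPM of the slow fibre genes was 4393 to 9198 in control, 6910 to 13777 in UL and 7648 to 16187 in ULU, and its part in the ANKRD2 values was not tested. Of 13 genes of regeneration and denervation tested, conditions in which ANKRD1, ANKRD2 and XIRP1 are known to be induced, MYOD1 rose (0.86, SE 0.20, adjusted p = 0.0258 in the edgeR test) and MYF6 fell (-1.10, SE 0.21, adjusted p = 0.0122 in the edgeR test). Embryonic and neonatal myosin (MYH3 and MYH8), which mark new fibres, had log2(fold change) values of 0.40 and 0.19 with SEs of 0.57 and 0.67 (adjusted p = 0.742 and 0.909 in the edgeR test).

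Markers of other cell types in muscle were read beside ANKRD1. The summed CPM of the 6 fibroblast markers was 2640 to 5724 in control, 3310 to 6458 in UL and 2248 to 5724 in ULU, and 5 of 5 tested markers were lower in ULU than in control without passing the test. For the 5 endothelial markers the sums were 99.9 to 161 CPM in control, 88.0 to 252 in UL and 103.6 to 181 in ULU. All 6 leukocyte markers had a negative log2(fold change) in ULU vs control (median -0.53, summed CPM 33.1 to 146 in control, 45.9 to 95.9 in UL and 20.2 to 132 in ULU). Of 5 adipocyte markers tested, 5 had a negative log2(fold change) in UL vs control (median -0.67) and 4 in ULU vs control (median -0.97), and 0 passed the test in either. Their summed CPM was 183 to 736 in control, 199.9 to 366 in UL and 164 to 332 in ULU. The sums overlapped between the diets for each of these cell types, and their part in the ANKRD1 values was not tested.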

How the data were processed

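RNA-seq of 17 longissimus dorsi libraries (6 control, 6 UL, 5 ULU, grouped by the labels) was used. After trimming with fastp and alignment with hisat2, the authors deposited raw counts of single 75 nt reads per gene of Sscrofa11.1, Ensembl release 104, from featureCounts. The header of the counts names version 2.0.1 of featureCounts, whereas the submitters' processing notes name Subread 1.5.1. The authors also deposited a score of another kind, the mean count of each gene over the libraries, which was only checked against the count columns. No count column was left out.

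Symbols came from a table of Ensembl identifiers (15030 of 31908 genes), and 180 of 190 list genes were matched, 11 of them by position in RefSeq genes of the same assembly. Counts were analysed with edgeR 4.0.16 in R 4.3.3 (TMM, filter on low counts with 14203 genes kept, quasi-likelihood F test in 1 model of all 17 libraries, Benjamini-Hochberg adjustment over all genes kept, adjusted p of 0.05). Standard errors were the absolute log2(fold change) divided by the square root of F. Log2 CPM used a prior count of 2. Correlations used deviations from diet means, with 100000 two-sided permutations within diets (exact enumeration within 1 diet), adjusted over the 21 pairs and separately over the 21 relations with scores. Alternatives were DESeq2 1.42.0, other samples, size factors, filters and each library left out. Both tests were checked on simulated data. The 7 genes and the lists were chosen with earlier results of these data known. From lists, genes that passed in any comparison were named (at most 4 per list by p), with TTN, CAPN3 and TRIM63 always. CCN2, MYH3, MYH8, MYL4 and TNNI3 were named after their values had been seen. The values of 1 gene most like ANKRD2 are not reported here.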

Additional observations from a re-analysis of the deposited data

Results flagged for a closer look

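A library was looked at again where its gap to the nearest library, divided by the range of its diet, exceeded Dixon's 95% critical value. The rule was applied to CPM and not to log2 CPM, on which high values stand out less. Chance flags about 1 in 20 groups of normally distributed values, which was not checked for these genes. In all, 21 groups (7 genes in 3 diets) were examined, of which 3 were flagged. ANKRD1 in control had 1209 CPM in replicate 26, and the next control library had 411 CPM. ANKRD1 in ULU had 287 CPM in replicate 42, and the next ULU library had 98.8 CPM. TCAP in ULU had 798 CPM in replicate 40, and the next ULU library had 447 CPM. Without replicate 40, the log2(fold change) of TCAP in ULU vs control was -0.31, against -0.06 with it.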

How the results depend on the processing

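The count of the 7 genes past an adjusted p of 0.05 was 0 in each comparison under the edgeR alternatives (2 diets at a time, size factors of DESeq2, no filter, a fold change limit and, chosen after seeing the data, no mitochondrial genes). DESeq2 gave a count of 1 in ULU vs control, on the 2 diets and on all libraries, and 0 in the other comparisons. With 1 library left out, the count in ULU vs control was 0 to 1 (without ULU replicate 42), and the cause was not tested. The gene behind these counts is ANKRD1, which was chosen by that difference, so nothing is read from them, and the count over the other 6 genes was 0. No paired analysis was possible because the diets share no replicate numbers.

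Some values changed sign. CSRP3 in ULU vs control was -0.0042 with edgeR on the 2 diets. With 1 library left out, log2(fold change) values went from -0.59 to 0.23 (ANKRD1, UL vs control), -0.64 to 0.10 (ANKRD2, ULU vs UL), -0.18 to 0.0055 and -0.046 to 0.14 (ANKRD23, ULU vs control and ULU vs UL), -0.30 to 0.19 (CSRP3, ULU vs control), -0.093 to 0.059 (MYPN, UL vs control) and -0.31 to 0.044 (TCAP, ULU vs control).

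The correlation of ANKRD1 with ANKRD23 was 0.00735 by Spearman and 0.435 in UL alone, with CSRP3 -0.166 in control alone, with TCAP 0.0990 without centring, 0.0466 by Spearman and 0.757 in UL alone, and with MYPN 0.561 in UL alone. With 1 library left out it went from -0.373 to 0.0716 (ANKRD23), -0.149 to 0.136 (TCAP) and -0.420 to 0.15 (MYPN). Without centring on diets, 5 relations with scores changed sign, namely ANKRD1, ANKRD23 and MYPN with the slow fibre score (-0.322, -0.0403 and 0.0971), and ANKRD2 with the immediate early and YAP target scores (-0.0401 and -0.148). Leaving out 1 library gave -0.142 to 0.138 for ANKRD1 and -0.438 to 0.0799 for XIRP1 with the slow fibre score, -0.198 to 0.212 for ANKRD2 with the YAP target score, and -0.00499 to 0.315 (ANKRD2), -0.421 to 0.0758 (ANKRD23), -0.308 to 0.0275 (MYPN) and -0.319 to 0.000651 (TCAP) with the immediate early score.

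Depth was not limiting, since each of the 7 genes had at least 137 reads in every library. The number of piglets and the spread between them limit ANKRD1, ANKRD2, CSRP3 and XIRP1, and the shared exons limit the level of ANKRD23.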
